A study of Mus musculus with 6 samples.

Results

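The genes described here encode hormones and other proteins that the liver releases into blood, the locally acting growth factor FGF1, and the receptor pair through which endocrine fibroblast growth factors act on hepatocytes. They were measured in livers of CREBH-K.O mice and WT mice by RNA sequencing, with 3 libraries per genotype. The 10 genes, Fgf21, Gdf15, Fgf1, Fgfr4, Klb, Ahsg, Fetub, Lect2, Selenop and Rbp4, were taken by symbol from the 55536 genes of the deposited count files, and all 10 passed the filter on low counts. CREBH-K.O mice lack CREBH, a membrane-bound transcription factor of hepatocytes encoded by Creb3l3, and WT mice carry the gene. Both groups had fasted for 14 h before liver was taken. The sources used here do not give the strain, sex or age of the mice, how the allele was made, or whether each library came from its own mouse, so the p-values measure the spread between these libraries. For CREBH-K.O 2 and CREBH-K.O 3 the labels record the loss of the first-read file, and how their counts were made is not stated. No WT label records such a loss, so a difference in counting between these libraries and the rest cannot be told apart from genotype in them.

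FGF21 is a hormone of the fasted and stressed liver that acts on fat and brain through an FGF receptor bound to the co-receptor beta-klotho. GDF15 is a stress hormone that lowers food intake through a receptor of the brainstem. Both genes are known as targets of ATF4, the transcription factor of the integrated stress response, and Fgf21 is also a known target of PPAR-alpha, the fasting receptor of fatty acid use. In hepatocytes themselves, FGFR4 with beta-klotho (Klb) receives the intestinal hormone FGF15, which represses bile acid synthesis. The fetuins (Ahsg, Fetub), LECT2, selenoprotein P (Selenop) and retinol-binding protein (Rbp4) are plasma proteins made largely by hepatocytes.

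The bases before the starts of Fgf21 and Gdf15 are shown because these were the members with the steepest differences between the genotypes, in opposite directions. Both sequences are the 250 bases upstream of a RefSeq start (GRCm38.p6), read 5′ to 3′ on the minus strand, which both genes use. Capitals mark matches, on either strand, to TGACG (the core of the cAMP response element, bound by factors of the CREB family), TGACGTCA (its palindrome), TGATGNAA (a composite element of the kind ATF4 binds), CCACG (a part of the ER stress element) and, by name, the PPAR direct repeat, which PPAR-alpha binds with its partner RXR.
Fgf21, chr7:45615491-45615740: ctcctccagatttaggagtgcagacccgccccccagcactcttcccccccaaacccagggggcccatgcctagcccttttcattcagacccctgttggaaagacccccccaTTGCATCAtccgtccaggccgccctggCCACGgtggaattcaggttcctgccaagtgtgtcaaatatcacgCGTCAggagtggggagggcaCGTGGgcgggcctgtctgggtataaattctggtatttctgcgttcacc
Gdf15, chr8:70632457-70632706: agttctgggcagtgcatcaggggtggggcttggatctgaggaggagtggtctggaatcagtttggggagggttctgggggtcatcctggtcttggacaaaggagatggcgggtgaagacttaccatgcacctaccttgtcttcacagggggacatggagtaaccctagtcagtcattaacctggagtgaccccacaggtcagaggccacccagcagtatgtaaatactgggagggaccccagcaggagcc

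The window of Fgf21 holds 1 match to TGATGNAA, from 139 to 132 bases before the start, 1 to TGACG, from 68 to 64 bases before it, and 2 to CCACG. The window of Gdf15 shown, and that of its other RefSeq start, hold no match to any of the 5 motifs. The matches are not particular to Fgf21 among the members. Over all their RefSeq starts, Rbp4 holds 1 match to TGATGNAA. To TGACG, Klb, Fetub and Rbp4 hold 1 match each and Selenop 2. To CCACG, Fgfr4 holds 3 matches, Fetub 2, and Klb, Ahsg and Rbp4 1 each. No window of Fgf1 was searched. Of 32851 RefSeq start windows of the same length, 3.45% hold TGATGNAA, 17.8% TGACG, 28.3% CCACG, 1.55% TGACGTCA and 0.0335% the PPAR direct repeat. A match to TGACGTCA holds TGACG as well. These are exact matches of letters, with N standing for any base, and not measured binding. Stretches 1 base off a motif were not counted.

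Reads counted in genes numbered 28106243 to 34146918 in CREBH-K.O and 31679996 to 39288819 in WT libraries. Levels are given as CPM, counts scaled to a common library size, and levels of different genes are compared only per kilobase of exon (RPKM). The targeted gene, Creb3l3, had 49.6 ± 6.79 CPM in CREBH-K.O and 486 ± 16.6 CPM in WT livers (SD, n = 3 each). Over all 15589 genes tested, 10.4% passed an adjusted p of 0.05 (quasi-likelihood test of edgeR, adjusted by Benjamini-Hochberg), 3.91% upwards and 6.46% downwards in CREBH-K.O. The summed level of 10 hepatocyte markers was 80841 to 88128 CPM in CREBH-K.O and 66382 to 79031 CPM in WT livers. Of these, Serpina1e rose (10127 CPM in CREBH-K.O, 3299 CPM in WT), Apob fell and 8 did not pass. Without Serpina1e, left out after the data were seen, the sum was 71878 to 77715 CPM in CREBH-K.O and 62428 to 76261 CPM in WT livers, and the groups overlapped. That of 8 stellate cell and fibroblast markers was 187 to 216 CPM in CREBH-K.O and 136 to 163 CPM in WT livers, and Dcn was the only one of the 8 to pass the test. The summed levels of markers of cholangiocytes (6 genes), macrophages (7), endothelium (7), red cells (6) and lymphocytes (7) overlapped between the genotypes. Among these markers the cholangiocyte gene Sox9 rose, at 16.6 CPM in CREBH-K.O and 8.59 CPM in WT (log2 fold change 0.96, edgeR adjusted p = 0.0312), and no other passed. Of the other cholangiocyte genes tested, Epcam averaged 6.19 CPM in CREBH-K.O and 13.4 CPM in WT (edgeR adjusted p = 0.107). Log2 fold changes were -0.35 for Krt19, -0.09 for Spp1 and 0.04 for Krt7. Of 9 genes of pancreatic acinar cells, which make FGF21 as well, the summed level was 0.612 to 0.878 CPM in CREBH-K.O and 0.563 to 1.32 CPM in WT livers, with Cel at 0. Of 7 adipocyte markers, Cfd fell, with 1 count over the CREBH-K.O and 174 over the WT libraries, and Car3 fell by 1.37 on the log2 scale (edgeR adjusted p = 0.00394 and 0.0127). Fabp4 averaged 7.21 CPM in CREBH-K.O and 5.17 CPM in WT and did not pass (adjusted p = 0.101). Lep and Retn were at 0, and Adipoq averaged 0.0538 CPM in CREBH-K.O and 0.0108 CPM in WT livers. Plin1 had 1 count over the CREBH-K.O and 0 over the WT libraries. The summed level of the 7 was 233 to 325 CPM in CREBH-K.O and 395 to 846 CPM in WT livers. Car3, which averaged 266 CPM in CREBH-K.O and 686 CPM in WT livers, held most of it. The sum thus mostly gives the level of Car3 and does not measure fat cells as a whole. The part of these cell types in the results was not tested. In bulk tissue, fewer cells of a type and less RNA per cell cannot be told apart.

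Of the 10 members, Gdf15 rose and Fgf21, Lect2, Fgf1 and Selenop fell, so 1 member passed upwards, 4 passed downwards and 5 did not pass. Libraries of the genotypes did not overlap for any of the 10, also where the difference was small. Over all tested genes, 30.6% did not overlap. The median log2 fold change, CREBH-K.O over WT, was -0.31 over the members and 0.02 over all genes tested. With 1 library left out, the number of members called was 3 without CREBH-K.O 2, CREBH-K.O 3, WT 2 or WT 3, and 7 without WT 1. No member was called when CREBH-K.O 1 alone was set against WT.

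**Figure D1:**
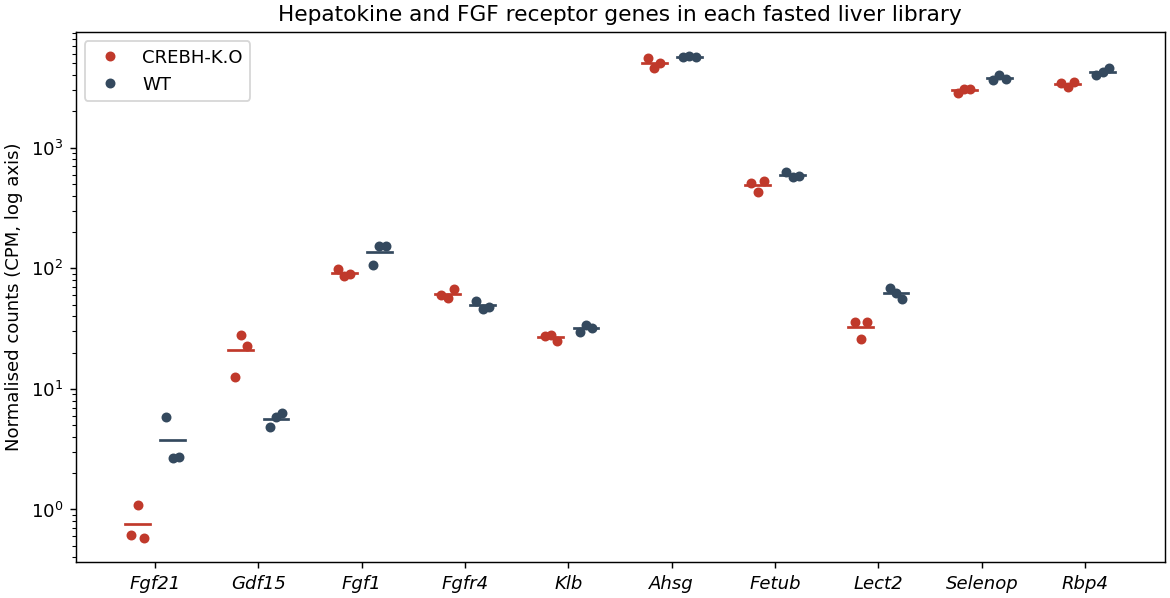
Normalised counts (CPM, log axis) of the 10 genes in each library, with CREBH-K.O in red and WT in dark grey; points are libraries and bars are means of 3. The points of the genotypes do not overlap for any gene, and the gap is widest for Fgf21 (0.581 to 1.08 CPM in CREBH-K.O, 2.69 to 5.82 CPM in WT).

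Fgf21 (ENSMUSG00000030827, chromosome 7, 45613886 to 45615490, minus strand, GRCm38) had 0.615, 1.08 and 0.581 CPM in CREBH-K.O 1, 2 and 3, against 5.82, 2.69 and 2.70 CPM in WT 1, 2 and 3. WT 1 stood above the other WT libraries, and CREBH-K.O 2 above the other CREBH-K.O libraries. The gene was near the limit of what these libraries resolve, with 72 counts over the CREBH-K.O and 394 over the WT libraries. Its mean was 0.759 ± 0.280 CPM in CREBH-K.O and 3.74 ± 1.80 CPM in WT (SD, n = 3 each). The fitted log2 fold change was -2.31 ± 0.40, or 4.96-fold lower in CREBH-K.O (SE; 95% interval -3.21 to -1.40; edgeR adjusted p = 0.00810). Without WT 1 it was -1.84, and Fgf21 was called with each single library left out (adjusted p of 0.00878 to 0.0395).

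Gdf15 (ENSMUSG00000038508, chromosome 8, 70629393 to 70632456, minus strand) moved the other way. It had 12.4, 28.2 and 22.6 CPM in CREBH-K.O 1, 2 and 3, against 4.81, 5.85 and 6.31 CPM in WT 1, 2 and 3. The lowest CREBH-K.O library, CREBH-K.O 1, was still above the highest WT library, and the CREBH-K.O libraries spread more widely than the WT ones. The difference was 3.73-fold, a log2 fold change of 1.90 ± 0.27 (SE; 95% interval 1.29 to 2.51; edgeR adjusted p = 0.00324). With 1 library left out it ranged from 1.63 to 2.17. CREBH-K.O 1, the library of its group whose label reports no lost file, gave 1.12 when it alone was set against WT (adjusted p = 0.0618).

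Per length, Gdf15 stood above Fgf21 in every CREBH-K.O library but not in every WT library. In CREBH-K.O livers Gdf15 was at 11.4 ± 4.32 RPKM and Fgf21 at 0.798 ± 0.294 RPKM (SD, n = 3 each), with no overlap. In WT livers Gdf15 was at 3.05 ± 0.414 RPKM and Fgf21 at 3.93 ± 1.90 RPKM, and their libraries overlapped. Only WT 1 had Fgf21 (6.12 RPKM) above Gdf15 (2.60 RPKM), and in WT 2 and WT 3 Gdf15 was the higher. Among all tested genes ranked by mean RPKM, Gdf15 stood at place 2859 in CREBH-K.O and 6836 in WT, and Fgf21 at place 11083 in CREBH-K.O and 6017 in WT.

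The genes most like each hormone were found by the root mean square difference of their log2 CPM, centred on each gene's mean, over the 6 libraries, among 12564 genes with at least 1 CPM on average. This measure uses the genotype difference as well as the spread within genotypes. For Fgf21 they were Mup18, Rfx4, Inhbe, Fam131c and Slc18a1, at 0.187 to 0.343. Mup18 belongs to a family of near-identical genes, so its counts are uncertain. Inhbe, which encodes the hepatokine activin E, had 21.4, 27.2 and 21.3 CPM in CREBH-K.O 1, 2 and 3, against 135, 67.0 and 80.7 CPM in WT 1, 2 and 3. As for Fgf21, WT 1 and CREBH-K.O 2 were the highest libraries of their groups. For Gdf15 the most alike were Renbp, an enzyme gene of sialic acid metabolism, Rasgef1b, Gm47917, Mgp and Gm37928, at 0.186 to 0.292. Rasgef1b had 26.8, 69.4 and 68.1 CPM in CREBH-K.O 1, 2 and 3, against 10.7, 17.8 and 16.8 CPM in WT 1, 2 and 3. As for Gdf15, CREBH-K.O 1 and WT 1 were the lowest libraries of their groups. CREBH-K.O 1 is also the library of its group whose label reports no lost file. Levels of Gm47917, Mgp and Gm37928 were low, with means of 0.799, 0.398 and 0.646 CPM in WT livers.

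Transcription factors reported to act on Fgf21 or Gdf15 were measured from a list of 24, all tested, of which 1 rose, 5 fell and 18 did not pass (25.0% called, against 10.4% of all genes). The list median was -0.15 on the log2 scale. Ppara had 55.1, 47.2 and 58.7 CPM in CREBH-K.O 1, 2 and 3, against 102, 137 and 151 CPM in WT 1, 2 and 3, a log2 fold change of -1.28 ± 0.14 (SE, edgeR adjusted p = 0.00114). Rxra, its partner receptor, fell by 0.48 on the log2 scale, and this call was lost without WT 2 (adjusted p = 0.0513). Atf5, a stress factor related to ATF4, fell by 1.06, and the clock factor Nr1d1 fell by 0.89. Ddit3 (CHOP), induced by ATF4, rose by 0.71 ± 0.18 (SE, edgeR adjusted p = 0.0359), and its call was lost with any single library left out except WT 3 (adjusted p up to 0.123). Atf4 itself averaged 107 ± 5.47 CPM in CREBH-K.O and 85.1 ± 17.3 CPM in WT (SD, n = 3 each), and its log2 fold change of 0.33 ± 0.13 did not pass (SE, edgeR adjusted p = 0.156).

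Fgf1 (ENSMUSG00000036585, chromosome 18, 38838673 to 38929472, minus strand) encodes a growth factor that binds all FGF receptors and acts locally rather than as a hormone. It had 99.5, 85.6 and 89.9 CPM in CREBH-K.O 1, 2 and 3, against 106, 152 and 152 CPM in WT 1, 2 and 3. WT 1 lay close to the CREBH-K.O libraries. The log2 fold change was -0.58 ± 0.14 (SE; 95% interval -0.89 to -0.26; edgeR adjusted p = 0.0317). It was -0.74 without WT 1 and ranged from -0.56 to -0.50 in the fits that lost the call, those without CREBH-K.O 2, CREBH-K.O 3, WT 2 or WT 3 (adjusted p of 0.0859 to 0.121).

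The receptor pair, Fgfr4 and Klb, differed less between the genotypes than Fgf1 did. Fgfr4 (ENSMUSG00000005320, chromosome 13, 55152640 to 55168759, plus strand) had 60.1, 56.5 and 67.1 CPM in CREBH-K.O 1, 2 and 3, against 53.8, 46.3 and 47.6 CPM in WT 1, 2 and 3. Every CREBH-K.O library lay above every WT library, but the log2 fold change of 0.31 ± 0.09 did not pass (SE; 95% interval 0.10 to 0.53; edgeR adjusted p = 0.0689). It passed without WT 1 (0.37, adjusted p = 0.0423) and when libraries were scaled by size alone (0.39, adjusted p = 0.0364) or by upper quartile (0.35, adjusted p = 0.0486).

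Klb (ENSMUSG00000029195, chromosome 5, 65348314 to 65384007, plus strand), the beta-klotho gene, had 27.5, 28.2 and 25.2 CPM in CREBH-K.O 1, 2 and 3, against 29.4, 33.7 and 32.3 CPM in WT 1, 2 and 3. Its log2 fold change of -0.24 ± 0.09 did not pass (SE; 95% interval -0.44 to -0.03; edgeR adjusted p = 0.138), also with any single library left out (adjusted p of 0.0735 to 0.355). Of the receptor and its co-receptor, neither gene passed the test, and their fold changes had opposite signs.

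The other FGF receptor genes differed in direction. Fgfr2 had 52.3, 49.3 and 48.6 CPM in CREBH-K.O 1, 2 and 3, against 22.3, 30.5 and 26.4 CPM in WT 1, 2 and 3, with no overlap. Its log2 fold change was 0.92 ± 0.11 (SE, edgeR adjusted p = 0.00174), and it was called with each single library left out (adjusted p up to 0.00994). Fgfr1 fell by 0.88 ± 0.18 (SE, edgeR adjusted p = 0.0153), a call lost without CREBH-K.O 2 or WT 2 (adjusted p up to 0.0654), and Fgfr3, at -0.36 ± 0.24, did not pass (SE, edgeR adjusted p = 0.390). Per length, Fgfr4 was the highest of these receptor genes in every library, at 67.5% ± 1.34 of their summed RPKM in CREBH-K.O and 65.4% ± 5.12 in WT (SD, n = 3 each). Fgfr2 made up 19.0% ± 1.62 in CREBH-K.O and 12.1% ± 2.59 in WT, and Fgfr1 2.91% ± 0.209 in CREBH-K.O and 6.48% ± 1.41 in WT. Stellate cells also express FGF receptors. Their summed markers did not overlap between the genotypes, as given above, but only Dcn among them passed. The part of stellate cells in the receptor levels was not tested.

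**Figure D2:**
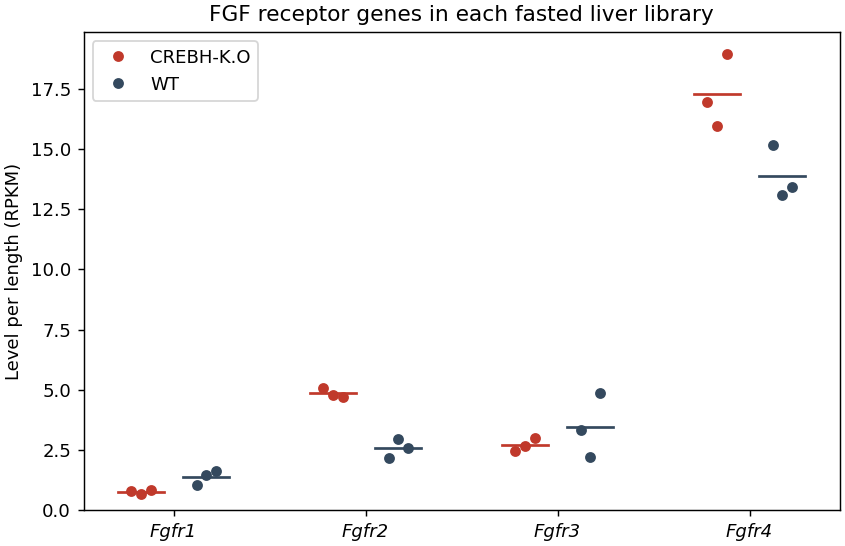
Levels per length (RPKM) of the FGF receptor genes in each library, with CREBH-K.O in red and WT in dark grey; points are libraries and bars are means of 3. Fgfr4 is the highest in both genotypes, and Fgfr2 is at 4.71 to 5.06 RPKM in CREBH-K.O, above its 2.16 to 2.95 RPKM in WT.

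Of 30 listed genes of FGF receptor signalling and its ERK feedback, 28 were tested. In CREBH-K.O, Fgfr2 rose, Fgfr1 and the decoy receptor gene Fgfrl1 (-0.69) fell, and 25 did not pass. This share of calls, 10.7%, was near the 10.4% of all genes, and the list median was 0.01 on the log2 scale. Of 12 listed genes of bile acid synthesis, bile transport and their control, 11 were tested, 4 fell and none rose. The share called was 36.4%, against 10.4% of all genes, and whether these genes responded to FGFR4 and beta-klotho here was not tested. The fallers were the bile acid enzymes Cyp27a1 (-0.77), Cyp7b1 (-1.61) and Akr1d1 (-0.84) and the bile acid uptake transporter Slc10a1 (-0.50), on the log2 scale. The list median was -0.41, and -0.18 in limma-voom. The highest log2 fold change of the list, 0.86 ± 0.26 for Nr0b2, did not pass (SE, edgeR adjusted p = 0.0664). Nr0b2 averaged 72.0 CPM in CREBH-K.O and 39.7 CPM in WT, and its libraries overlapped. The call of Akr1d1 was lost without CREBH-K.O 3 or WT 2 (adjusted p up to 0.0538), and that of Cyp7b1 in edgeR's robust fit (adjusted p = 0.0565). The enzymes that FGF15 is best known to repress did not pass: Cyp7a1, the rate-limiting enzyme of bile acid synthesis, had a log2 fold change of -0.41 ± 0.43 (SE, edgeR adjusted p = 0.598) and Cyp8b1 of -0.56 ± 0.20 (SE, edgeR adjusted p = 0.116). Cyp7a1 varied among WT libraries, with 143 ± 36.9 CPM in CREBH-K.O and 191 ± 122 CPM in WT (SD, n = 3 each).

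Among the plasma proteins, Lect2 fell furthest. LECT2 (ENSMUSG00000021539, chromosome 13, 56542464 to 56548502, minus strand) is a chemotactic hepatokine linked in mice to muscle insulin resistance. Its gene had 36.2, 26.1 and 35.6 CPM in CREBH-K.O 1, 2 and 3, against 69.2, 62.6 and 55.9 CPM in WT 1, 2 and 3. The highest CREBH-K.O library was well below the lowest WT library. The log2 fold change was -0.94 ± 0.13 (SE; 95% interval -1.24 to -0.63; edgeR adjusted p = 0.00337), or 1.92-fold lower in CREBH-K.O, and Lect2 was called with each single library left out (-1.02 to -0.80, adjusted p up to 0.0189).

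Selenop (ENSMUSG00000064373, chromosome 15, 3268547 to 3280508, plus strand) encodes the plasma protein that carries selenium from liver to other organs. It had 2848, 3071 and 3051 CPM in CREBH-K.O 1, 2 and 3, against 3654, 4038 and 3710 CPM in WT 1, 2 and 3. All CREBH-K.O libraries were lower, by a log2 fold change of -0.35 ± 0.09 (SE; 95% interval -0.56 to -0.14; edgeR adjusted p = 0.0471). This call was close to the threshold and was lost without any single library except WT 1 (adjusted p of 0.0796 to 0.182), and with scaling by library size alone (adjusted p = 0.103) or by upper quartile (adjusted p = 0.0650). Of its exonic bases, 15.4% lie within Ccdc152 on the opposite strand, and the strand setting of the counting is not given in the sources used here.

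Rbp4 (ENSMUSG00000024990, chromosome 19, 38116629 to 38125281, minus strand), which carries retinol in plasma, differed by nearly the same amount. It had 3447, 3162 and 3533 CPM in CREBH-K.O 1, 2 and 3, against 4016, 4223 and 4624 CPM in WT 1, 2 and 3. Its log2 fold change of -0.34 ± 0.10 did not pass (SE; 95% interval -0.57 to -0.12; edgeR adjusted p = 0.0625). It passed in DESeq2 (adjusted p = 0.00417), limma-voom (adjusted p = 0.0432), in the fit of unfiltered genes (adjusted p = 0.0131) and without WT 1 (adjusted p = 0.0331).

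The fetuin genes lie next to each other on the plus strand of chromosome 16, Ahsg (ENSMUSG00000022868) from 22891277 to 22899449 and Fetub (ENSMUSG00000022871) from 22918334 to 22939778. Ahsg encodes fetuin-A, an inhibitor of the insulin receptor and of tissue calcification, and Fetub encodes fetuin-B, an inhibitor of the protease ovastacin. Fetub had 509, 430.0 and 528 CPM in CREBH-K.O 1, 2 and 3, against 626, 572 and 586 CPM in WT 1, 2 and 3. The genotypes did not overlap, and the log2 fold change of -0.28 ± 0.10 did not pass (SE; 95% interval -0.50 to -0.06; edgeR adjusted p = 0.103), although DESeq2 (adjusted p = 0.0450) and the fit of unfiltered genes (adjusted p = 0.0443) called it.

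Ahsg had 5526, 4552 and 5033 CPM in CREBH-K.O 1, 2 and 3, against 5707, 5732 and 5649 CPM in WT 1, 2 and 3. The WT libraries were close together, and CREBH-K.O 1 was only just below them. The log2 fold change of -0.18 ± 0.10 did not pass (SE; 95% interval -0.41 to 0.06; edgeR adjusted p = 0.331). Of its exonic bases, 2.82% lie within Gm30505 on the opposite strand.

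**Figure D3:**
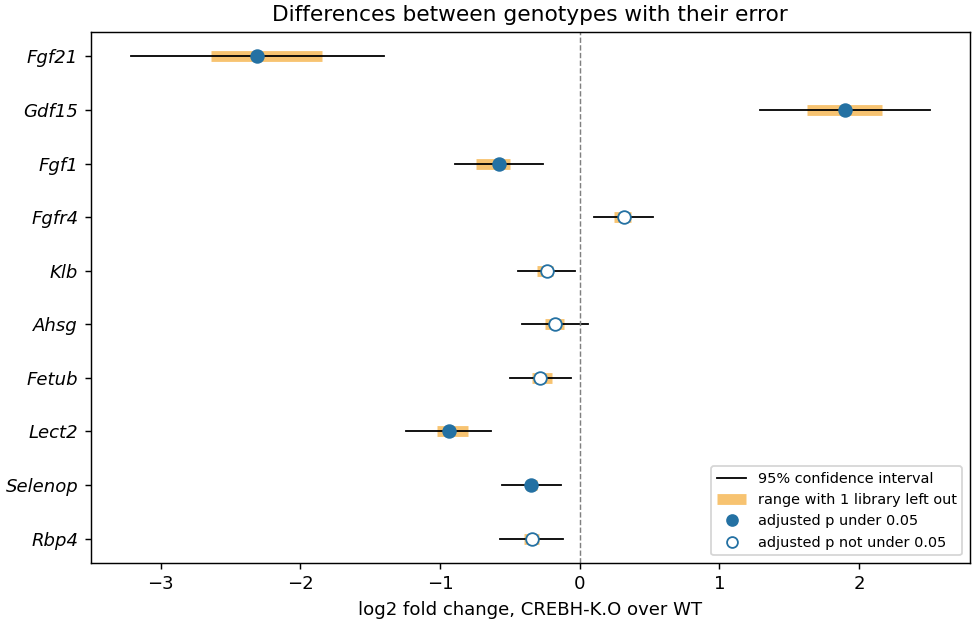
Log2 fold change, CREBH-K.O over WT, of each gene, with its 95% confidence interval (black line) and its range with 1 library left out (orange band); filled points passed an adjusted p of 0.05. Gdf15 (1.90) and Fgf21 (-2.31) lie far on opposite sides of 0, and only the interval of Ahsg includes 0.

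By level per length, the members spanned a wide range in both genotypes. In CREBH-K.O livers the order was Rbp4 (2517 RPKM), Ahsg (2293), Selenop (1052), Fetub (249), Lect2 (35.5), Fgfr4 (17.3), Fgf1 (16.8), Gdf15 (11.4), Klb (5.93) and Fgf21 (0.798), and the libraries of neighbours overlapped for Rbp4 with Ahsg and for Fgfr4 with Fgf1. In WT livers it was Rbp4 (3193 RPKM), Ahsg (2593), Selenop (1337), Fetub (303), Lect2 (68.1), Fgf1 (25.0), Fgfr4 (13.9), Klb (6.99), Fgf21 (3.93) and Gdf15 (3.05), and only Fgf21 and Gdf15 overlapped. Fgf1 was thus above Fgfr4 in every WT library, and their CREBH-K.O libraries overlapped. Together the members held 1.20% to 1.27% of gene counts in CREBH-K.O and 1.40% to 1.44% in WT livers, nearly all of it from Ahsg, Rbp4 and Selenop.

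Of 42 other genes of liver-secreted hormones and hepatokines, 38 were tested, 5 rose and 4 fell. The share called was 23.7%, against 10.4% of all genes, and the list median was 0.10 on the log2 scale. The activin antagonist gene Fst had 22.2, 26.6 and 13.0 CPM in CREBH-K.O 1, 2 and 3, against 2.22, 1.44 and 0.878 CPM in WT 1, 2 and 3, the steepest rise of the list (log2 fold change 3.74). Igfbp1, a fasting-induced binding protein of insulin-like growth factors, had 401, 269 and 262 CPM in CREBH-K.O 1, 2 and 3, against 69.6, 131 and 65.8 CPM in WT 1, 2 and 3. Its log2 fold change was 1.80 ± 0.27 (SE, edgeR adjusted p = 0.00412). Hamp (hepcidin) rose by 1.05, with counts that are uncertain because of its close copy Hamp2. Among the fallers, Serpina12 (vaspin) had a log2 fold change of -4.49, Inhbe of -2.02 and Igfbp2 of -0.50. The other calls were Angptl4 (0.50) and Serpinb1a (0.75), which rose, and Igfals (-0.39), which fell. Each of these last calls was lost without CREBH-K.O 3 or WT 2, among others (adjusted p up to 0.154), that of Igfals also with scaling by library size alone (adjusted p = 0.0769) and that of Serpinb1a in edgeR's robust fit (adjusted p = 0.0590).

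Genes of retinoid transport and storage, the pathway of RBP4, numbered 20 in the list, of which 15 were tested, 1 rose and 4 fell. The share called was 33.3%, against 10.4% of all genes. The median was -0.05, and 0.03 with scaling by library size alone. Among the called genes, those of retinoic acid hydroxylases had the largest falls: Cyp26b1 had 0.937, 1.59 and 1.35 CPM in CREBH-K.O 1, 2 and 3, against 8.92, 7.57 and 4.19 CPM in WT 1, 2 and 3, and Cyp26a1 fell by 1.24 on the log2 scale. The retinol dehydrogenase gene Rdh16 fell by 0.75 and the carotenoid oxygenase gene Bco2 by 0.68, and the call of Bco2 was lost without WT 2 (adjusted p = 0.0527). Stra6l, which encodes a liver receptor for retinol-binding protein, rose by 0.42, a call lost without any single library except WT 1 (adjusted p up to 0.136). Ttr, the plasma partner of RBP4, did not pass, with a log2 fold change of 0.18 ± 0.11 (SE, edgeR adjusted p = 0.362).

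Of 29 genes of selenoprotein synthesis and selenoproteins, 28 were tested, 4 fell and none rose. The share called, 14.3%, was near the 10.4% of all genes, and the median was -0.08. The fallers were Selenbp2 (-2.52), which binds selenium without being a selenoprotein and has a close copy in Selenbp1 that makes its counts uncertain, the mitochondrial selenoprotein gene Selenoo (-0.57), the thyroid hormone deiodinase Dio1 (-0.93) and the lipid peroxidase Gpx4 (-0.32). The calls of Selenoo, Dio1 and Gpx4 were lost without CREBH-K.O 3 or WT 2, among others (adjusted p up to 0.126), that of Gpx4 also with scaling by library size alone (adjusted p = 0.0846) and that of Dio1 in edgeR's robust fit (adjusted p = 0.105). Sephs2, which makes the selenium donor for selenoproteins, differed by -0.33 ± 0.09 on the log2 scale without passing (SE, edgeR adjusted p = 0.0519), nor did the peroxidase gene Gpx1 (-0.17 ± 0.10, adjusted p = 0.338).

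Of 14 genes of the cystatin superfamily, to which the fetuins belong, and of the fetuin neighbourhood, 9 were tested and 1 fell. The share called, 11.1%, was near the 10.4% of all genes, and the median was -0.07, or 0.01 with scaling by library size alone. That gene was Eif4a2 (-0.42), a translation factor and not a plasma protein, and it did not pass once WT 2 was left out (adjusted p = 0.0631). The plasma protein genes of the group did not pass: Hrg (histidine-rich glycoprotein) had a log2 fold change of -0.32 ± 0.11, Kng1 of -0.14 ± 0.10 and Kng2, also a kininogen gene, of 0.06 ± 0.09 (SE, edgeR adjusted p of 0.0947, 0.423 and 0.759).

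**Figure D4:**
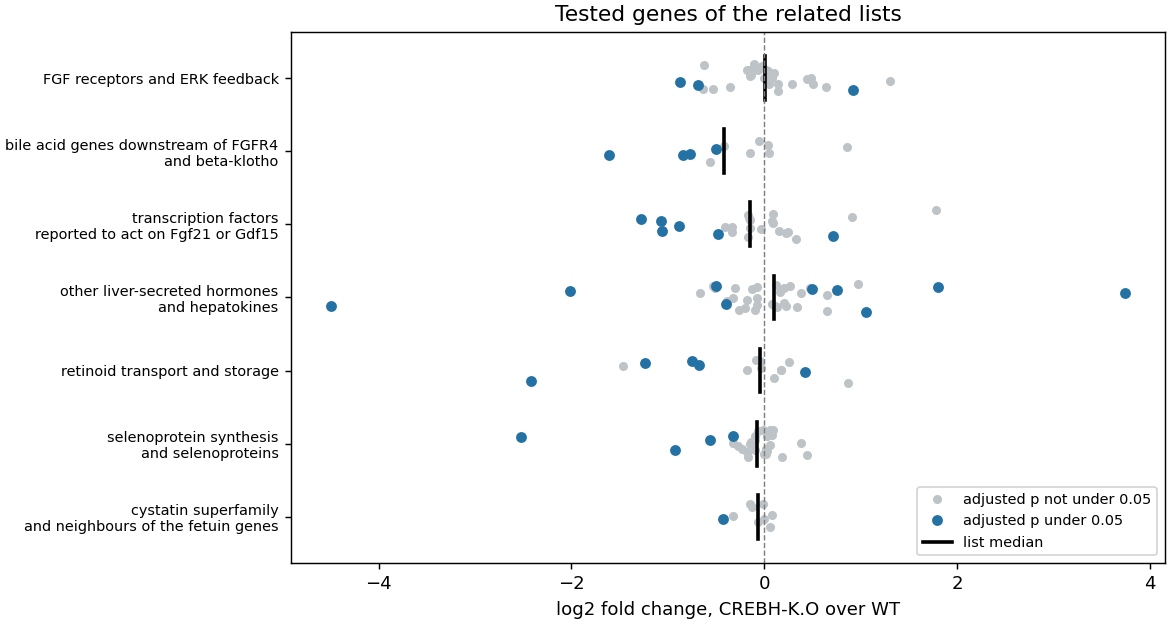
Log2 fold change, CREBH-K.O over WT, of every tested gene of the related lists; blue points passed an adjusted p of 0.05 and black bars are list medians. The list medians lie between -0.41 and 0.10, while single genes reach from -4.49 (Serpina12) to 3.74 (Fst).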

How the data were processed

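The authors deposited raw read counts, 1 file for each library, made with HTSeq per the labels' titles. Its version and strand setting, the aligner and the genome build are not given in the sources. Each of the 55536 gene identifiers matched GENCODE M21 (GRCm38), which supplied symbols, positions and exon lengths. HTSeq's lines for reads not counted for a gene held 27.4% to 31.2% of listed reads and were left out. Reads in no gene made up 7.96% to 10.4% and ambiguous reads 5.81% to 6.45%. Reads aligned to several places made up 13.7% to 15%. Tests used edgeR 4.0.16 in R 4.3.3 (filterByExpr, minimum count 10 and minimum total 15, TMM factors of 0.967 to 1.05, quasi-likelihood test, no covariate, two-sided, fitted on all 15589 genes kept and adjusted over them by Benjamini-Hochberg). SEs were derived from the fold change and the F statistic. CPM and RPKM were computed from the deposited counts with effective library sizes and, for RPKM, the union of annotated exons. Alternatives used DESeq2 1.42.0, limma 3.58.1 (voom), other scalings and filters, and fits without each library. The script was tested on simulated data. No pair of replicates agreed within sampling noise (lowest chi-square for each degree of freedom 18.8). Members, lists and tests were chosen with earlier results of these data known. Named genes are the members, Creb3l3, up to 6 called genes per list with the smallest adjusted p, listed receptors and partners, and the 5 genes most like Fgf21 and Gdf15. Angptl4, Igfals, Serpinb1a and Nr0b2 were named after their values were seen. The values of 1 called gene of the transcription factor list are not reported here.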

Additional observations from a re-analysis of the deposited data

How the results depend on the processing

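No member changed direction in any alternative run. No paired analysis was possible because replicate numbers only name libraries. The number of genes called was 1616, and 2456 with no filter, 228 with CREBH-K.O 1 alone against WT and 658 to 1806 with 1 library left out; of the calls, 37.7% were higher in CREBH-K.O, and 52.8% with scaling by library size alone. Members called numbered 5, and 0 with CREBH-K.O 1 alone and 3 to 7 with 1 library left out. With CREBH-K.O 1 alone, log2 fold changes were -2.63 for Fgf21, 1.12 for Gdf15, -0.48 for Fgf1, -0.81 for Lect2 and -0.44 for Selenop, and none passed. There the single library is assumed to vary like the WT libraries. Fgfr4 passed with library size alone (0.39) and upper-quartile factors (0.35), and Selenop did not (-0.27 and -0.31), nor with at least 1 CPM in 3 libraries (-0.34). Fetub passed with no filter (-0.30) and in DESeq2 (-0.29), and Rbp4 with no filter (-0.37), in DESeq2 (-0.35) and in limma-voom (-0.34). With 1 library left out, Fgf1 ranged from -0.74 to -0.50, Fgfr4 from 0.24 to 0.37, Selenop from -0.39 to -0.30 and Rbp4 from -0.40 to -0.29. Among the lists, calls with CREBH-K.O 1 alone numbered 1 for FGF receptors and feedback, 2 for bile acid genes, 2 for transcription factors, 5 for other hepatokines, 3 for retinoid genes, 2 for selenoprotein genes and 0 for the cystatin list. With 1 library left out, retinoid calls ranged from 3 to 5, selenoprotein calls from 1 to 4 and cystatin calls from 0 to 2. The cystatin list had 2 calls with no filter and in DESeq2. The cause was not tested. Depth limits Fgf21 most, with 19 to 32 counts per CREBH-K.O library.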
